A study of Homo sapiens with 6 samples.

Results

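The 33 genes described here make cholesterol and its precursors, sense and move sterols, or build fatty acids under the same regulators. They were taken by gene name from the deposited tables, which list 62754 genes, and all 33 names were found once in each table. Of these, 31 reached 1 TPM (a transcript level scaled to gene length and to the same total in every library) in 3 libraries or more and were tested, among 14294 genes tested in all. No tested member was below 4.02 TPM in any library, so none entered the test through 1 group alone. The list does not hold every gene of the pathway, and the others are not analysed here except where a further list is named. Poly(A) RNA had been sequenced from HUDEP-2, an immortalised human erythroid progenitor line, in a study of the MLL1 histone methyltransferase complex and fetal hemoglobin. The 3 MEN1 shRNA libraries carry a lentiviral hairpin labelled MEN1sh2 against MEN1, the gene of the MLL1 partner menin, and their genotype is labelled MEN1 knockdown, so they are called knockdown libraries below. The 3 control libraries carry a lentiviral non-targeting hairpin, labelled Controlsh, and their genotype is labelled WT. Both groups share the line and StemSpan SFEM, a serum-free medium. It held 3 units per ml of EPO, 50 ng per ml of SCF, 1e-06 M dexamethasone and 1 µg per ml of doxycycline. Both were also kept under puromycin at 2 µg per ml for 48 h, starting 24 h after infection, and were collected at 72 h. With 1 MEN1 hairpin, loss of menin and an off-target action of that hairpin cannot be told apart. The labels call the replicates biological but do not say whether each was a separate transduction, so p-values measure the spread between these libraries.

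Cells make cholesterol from acetyl-CoA through mevalonate, isoprenoid diphosphates, squalene and lanosterol. Most genes of this route are switched on by the SREBP transcription factors, which sit in the endoplasmic reticulum bound to SCAP and are held there by INSIG proteins when sterols are plentiful. When sterols run low, SCAP carries SREBP to the Golgi, where proteases release the active factor. SREBP-2 acts mainly on cholesterol genes and SREBP-1 mainly on fatty acid genes, while the sterol-sensing LXR receptors switch on export. Cholesterol is a main lipid of the red cell membrane, which erythroid precursors assemble as they mature.

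MEN1 had 6.29, 6.44 and 6.88 TPM in knockdown replicates 1, 2 and 3 against 41.2, 39.6 and 37.1 TPM in the same-numbered controls, in the direction that the labels give. Values with ± are means and SDs of 3 libraries. The inferred depth was 18400000 to 26400000 read pairs per knockdown library and 23200000 to 35800000 per control library. All 10 erythroid markers examined were present in both groups, with HBB at 30240 ± 2696 TPM in the controls and GATA1 at 277 ± 6.22 TPM. Markers of maturing erythroid cells moved with the groups: all 10 of 10 rose, and their summed level was 2686 to 2900 TPM in the controls and 5495 to 5882 TPM after knockdown. The progenitor marker KIT fell from 271 ± 18.6 to 122 ± 3.47 TPM, and 10 globin genes took 5.51% ± 0.273 of all TPM in the controls and 9.90% ± 0.630 after knockdown. Of the megakaryocyte markers, PF4 and PPBP were listed at 0 in all 6 libraries and ITGA2B fell from 33.8 ± 2.44 to 18.6 ± 2.35 TPM (summed list 31.8 to 36.7 TPM in the controls and 16.6 to 21.3 TPM after knockdown). All 4 lymphoid markers were below 1 TPM in every library (summed list 0.503 to 1.04 and 0.395 to 0.946 TPM). Among 6 myeloid and mast cell markers, MPO and ELANE were listed at 0 in 5 of 6 libraries, and TPSAB1 made up most of the summed 578 to 749 TPM in the controls and 422 to 504 TPM after knockdown. The part of these shifts in the results below was not tested, and in bulk RNA fewer cells of a type and less RNA per cell cannot be told apart.

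At 72 h after infection, transcripts of both SREBP genes and of most mevalonate enzymes were higher. Those of the 4 tested sterol transport and LXR target genes among the members were higher too. Transcripts of the fatty acid enzymes FASN and SCD were lower. The largest rise was that of MSMO1, the sterol methyl oxidase that removes methyl groups from lanosterol products, at 2.25 times the control level. The deepest falls were those of PMVK, the phosphomevalonate kinase, at 0.566 times, and of FASN, the fatty acid synthase, at 0.580 times. In limma on log2(TPM + 1), knockdown minus control, 22 of the 31 tested members (71.0%) passed 0.05 after Benjamini-Hochberg adjustment over all tested genes, against 53.6% of all tested genes and 61.1% of those with a mean TPM of 5 or more, which all 31 reach. Higher were 15 members (48.4%, against 22.1% of all genes) and lower were 7 (22.6%, against 31.5%). The split over all genes moved with the scaling, from 3158 higher and 4499 lower on TPM as deposited to 3758 and 3838 with median-of-ratios scaling, where 15 members were higher and 5 lower. The median log2 fold change was 0.19 over the members and -0.07 over all tested genes. All 22 had no overlap between groups, and with SQLE and ACLY 24 of 31 (77.4%) did so, against 61.8% of all genes.

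Most of the shifts were small. MSMO1 alone of 31 changed by 2-fold or more and passed, where 11.9% of all tested genes did. The median absolute log2 fold change was 0.49 over the called members and 0.62 over all called genes. Against a log2 fold change of 0.5 as the null (limma's treat), 4 members passed, SREBF2 and MSMO1 upward and PMVK and FASN downward, where 14.9% of all genes did. Within groups the members were steady, with a median coefficient of variation of 5.86% in the knockdown libraries and 4.81% in the controls.

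**Figure D1:**
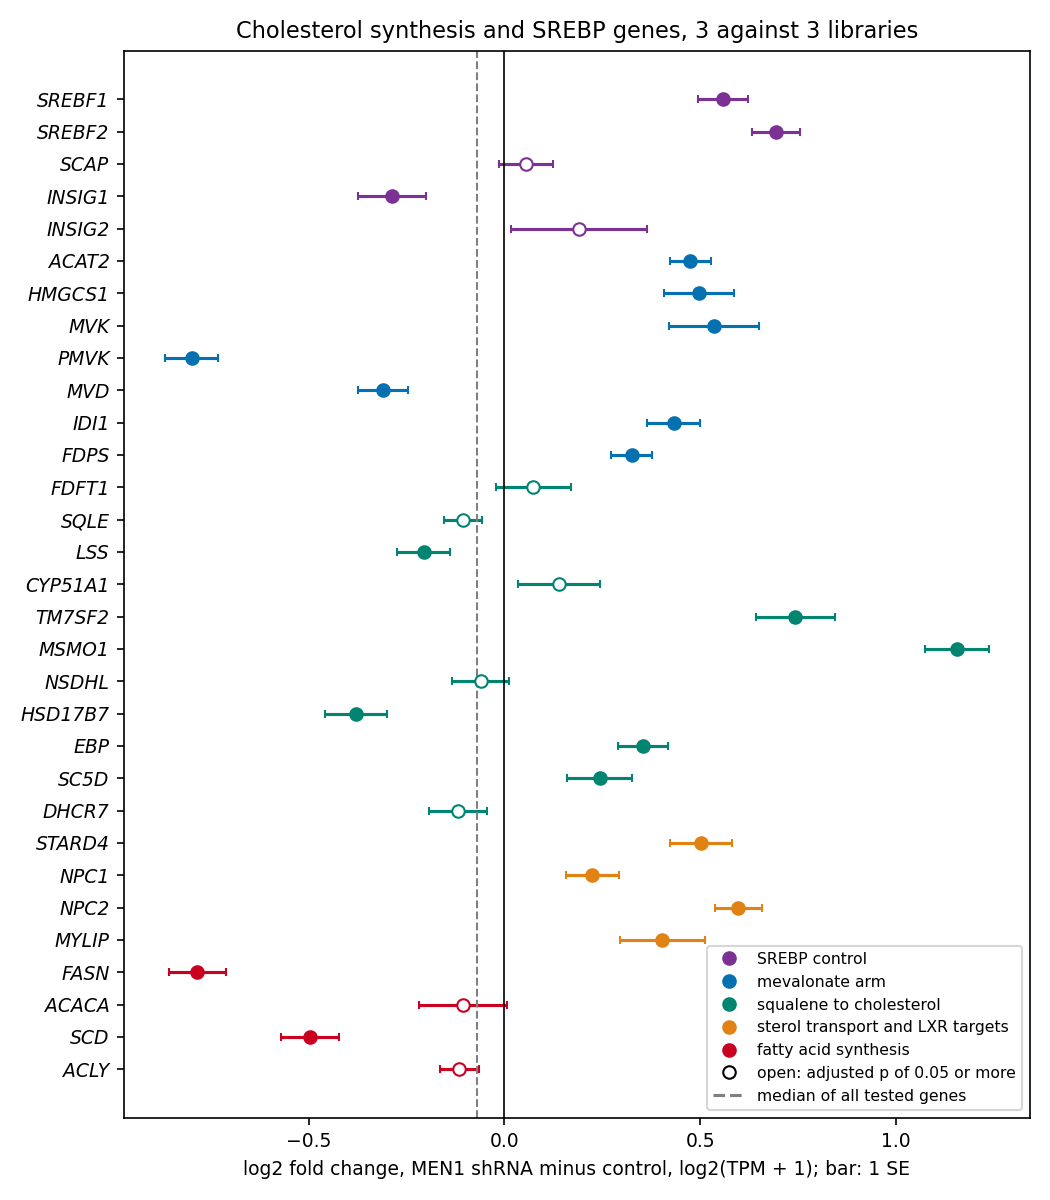
Log2 fold change (MEN1 shRNA minus control, on the log2(TPM + 1) scale) of the 31 tested members by role, with bars of 1 SE from 3 against 3 libraries. Filled points passed an adjusted p of 0.05 in limma, the dashed line is the median of all tested genes at -0.07, and MSMO1 lies farthest to the right at 1.16.

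**Figure D2:**
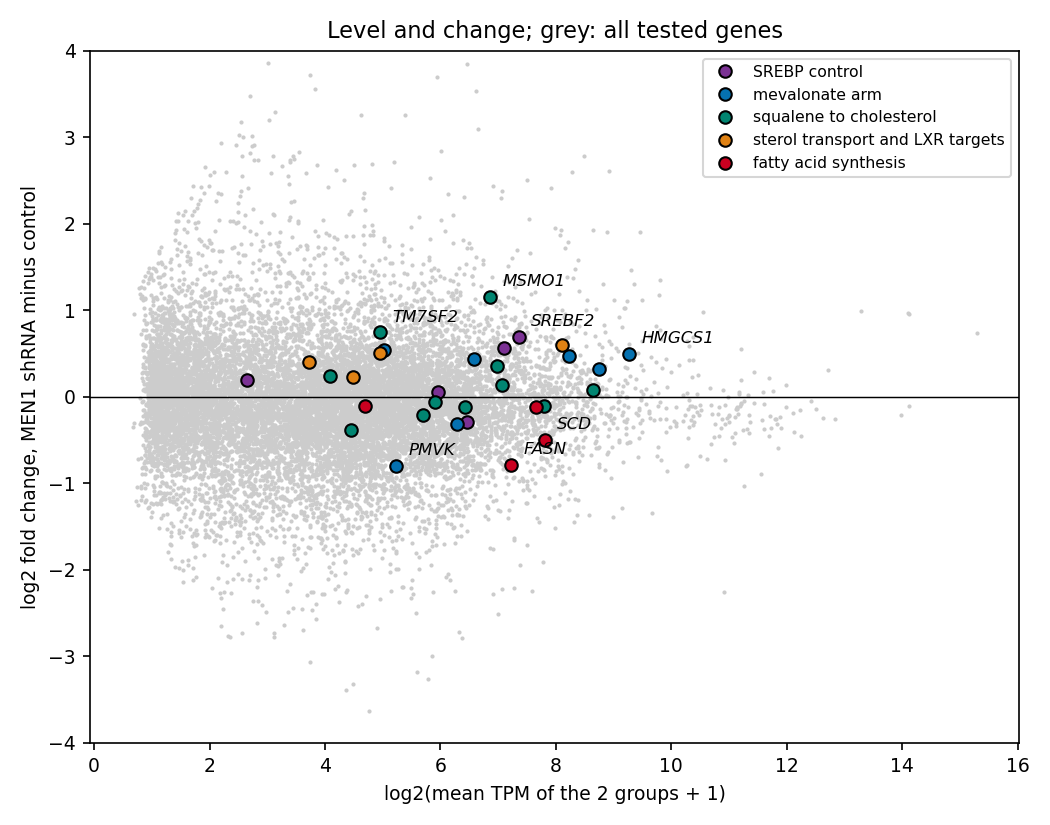
Log2 fold change against log2 of the mean TPM of the 2 groups plus 1, for all tested genes (grey, 10 of them outside the plotted range of 4) and the members (coloured by role). All 31 tested members have a mean TPM of 5 or more, as do 10185 of the 14294 tested genes, and INSIG2 is the lowest member. Apart from MSMO1 at 1.16, the members lie within 1 unit of 0.

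The promoters of 4 members are shown because they carry the largest rise (MSMO1), the only match to the sterol element (SREBF2), the deepest fall (PMVK) and a fatty acid gene that fell (SCD). Each run holds the 250 bases before the RefSeq transcript start on GRCh38.p14, read 5′ to 3′ along the gene's strand. Capitals mark CCAAT, the letters bound by the factor NF-Y that works beside SREBPs, and the sterol regulatory element core TCACNCCAC, on either strand. MSMO1 is from chr4:165327419-165327668, plus strand, and SREBF2 from chr22:41832855-41833104, plus strand. PMVK is from chr1:154936720-154936969, minus strand, and SCD from chr10:100346983-100347232, plus strand.
MSMO1: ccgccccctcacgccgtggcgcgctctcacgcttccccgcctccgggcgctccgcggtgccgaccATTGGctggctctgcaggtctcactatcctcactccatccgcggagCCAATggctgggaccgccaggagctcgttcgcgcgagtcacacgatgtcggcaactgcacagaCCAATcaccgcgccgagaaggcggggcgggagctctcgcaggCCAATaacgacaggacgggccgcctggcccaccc
SREBF2: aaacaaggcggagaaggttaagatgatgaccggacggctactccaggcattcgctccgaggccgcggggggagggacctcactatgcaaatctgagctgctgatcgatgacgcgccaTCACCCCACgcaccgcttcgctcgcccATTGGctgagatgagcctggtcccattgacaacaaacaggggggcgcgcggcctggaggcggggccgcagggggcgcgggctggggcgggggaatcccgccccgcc
PMVK: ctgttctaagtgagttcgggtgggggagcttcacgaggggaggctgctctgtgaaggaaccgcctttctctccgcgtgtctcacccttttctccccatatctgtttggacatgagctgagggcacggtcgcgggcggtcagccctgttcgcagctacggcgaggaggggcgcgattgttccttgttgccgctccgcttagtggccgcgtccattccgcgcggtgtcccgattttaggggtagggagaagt
SCD: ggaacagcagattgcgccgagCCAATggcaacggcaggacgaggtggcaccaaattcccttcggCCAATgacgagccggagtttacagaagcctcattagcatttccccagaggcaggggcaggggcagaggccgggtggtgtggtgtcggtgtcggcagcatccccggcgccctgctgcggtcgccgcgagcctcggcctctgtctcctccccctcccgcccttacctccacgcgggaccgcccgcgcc

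The MSMO1 run holds 4 matches to CCAAT, which begin 185, 139, 76 and 34 bases before the start, the first of them on the opposite strand. SREBF2 has the sterol element core 133 bases before its start and 1 CCAAT on the opposite strand 106 bases before it. PMVK has neither, and SCD has CCAAT 229 and 186 bases before its start. RefSeq windows, which also take 50 bases after the start, were found for 28 of 33 members, in 38 windows since some genes have several starts. The 5 members without a window are ACAT2, FDFT1, SQLE, ABCG1 and FASN. CCAAT was found in 25 of the 38 (65.8%), against 34.6% of all 35116 windows and 35.4% of the 13856 windows of tested genes. By gene, 12 of the 14 members that rose had it, 5 of the 6 that fell and 4 of the 7 that did not pass the test, so it was found in members of both directions. MVK, which rose, and NSDHL, which did not pass the test, hold more matches than MSMO1. Among enzymes of the mevalonate and sterol arms 13 of 15 had it. The counts by gene have no share by gene over all genes beside them. A gene with several windows also has more chances of a match. The sterol element core was in 1 of 38 windows (2.63%, against 1.13% of all and 1.05% of those of tested genes). Only these exact letters within the windows were searched, so an element with other letters or farther away is not counted. The GC box GGGCGG was in 35 of 38 (92.1%, against 45% of all and 66.9% of those of tested genes). An E-box, CACGTG, was in 6 of the 38 windows (15.8%, against 7.26% of all and 9.97% of those of tested genes). The GATA letters AGATAA were in 2 (5.26%, against 10.3% of all and 5.63% of those of tested genes). The motifs can overlap one another, the E-box reads the same on both strands, and a match is letters only, not a site shown to be bound.

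**Figure D3:**
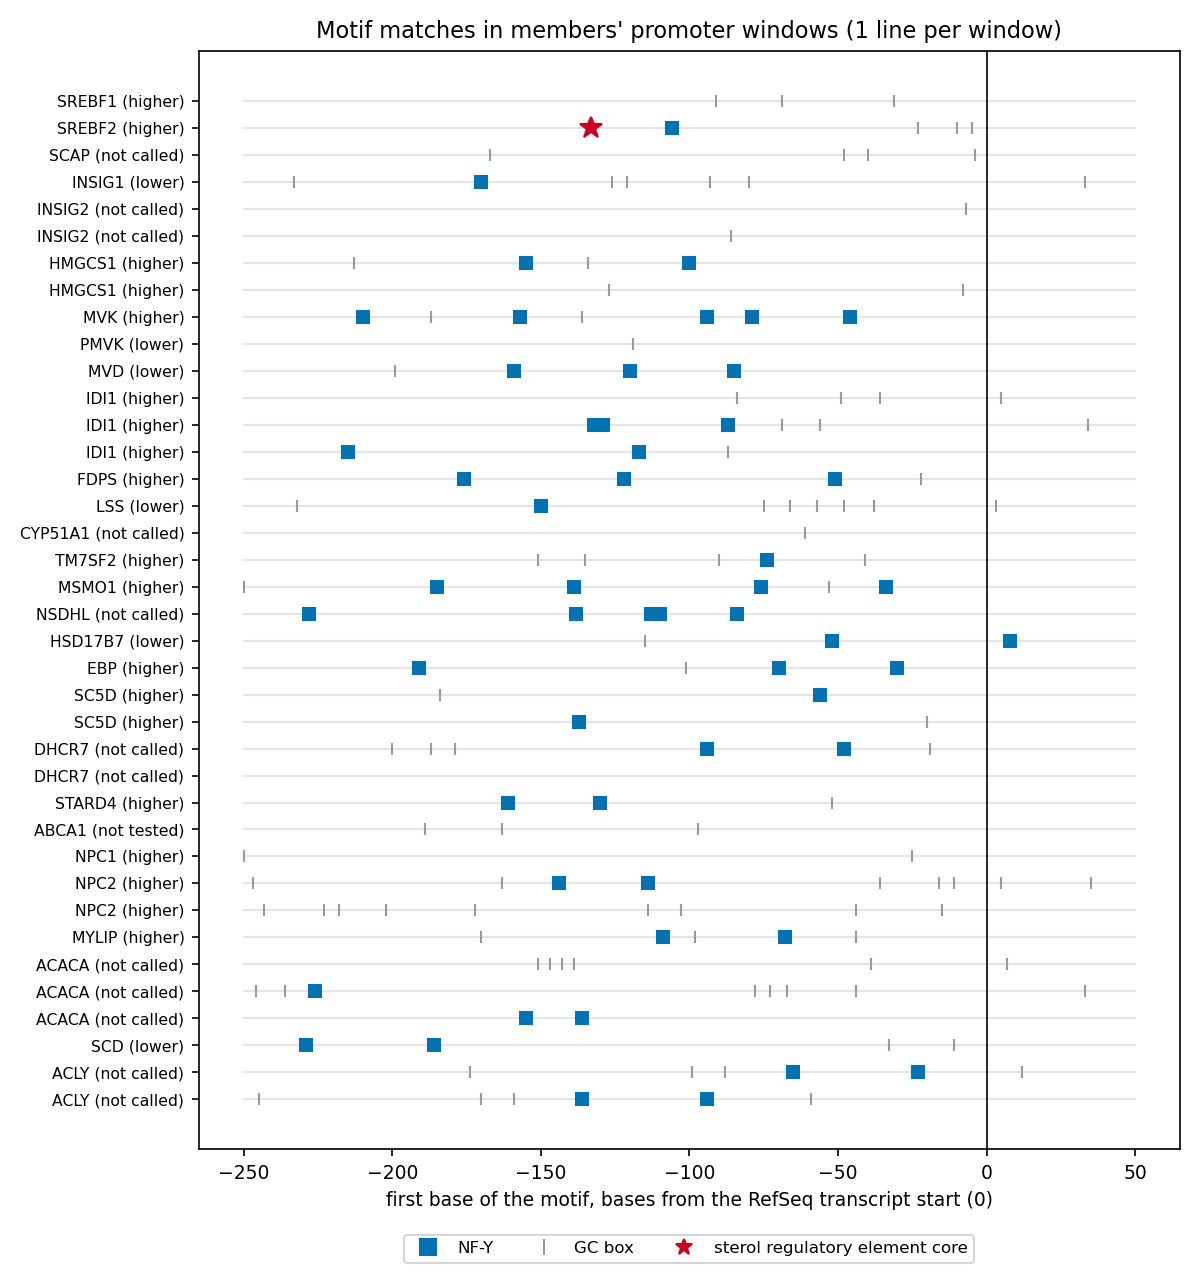
Positions of CCAAT (NF-Y, squares), the GC box (ticks) and the sterol regulatory element core (star) in the 38 promoter windows, as bases from the RefSeq transcript start at 0, with the call of each gene beside its name. MSMO1 shows 4 squares, fewer than MVK or NSDHL, and the star appears in SREBF2 alone.

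Both genes for the SREBP factors rose. SREBF2 (ENSG00000198911, chromosome 22, 41833105 to 41907306, plus strand), which encodes SREBP-2, had 188, 205 and 211 TPM after knockdown and 122, 128 and 122 TPM in the controls. All 3 knockdown libraries were high and the groups lay far apart (limma log2 difference 0.69 with SE 0.0609, p 9.5e-05 adjusted). SREBF1 (ENSG00000072310, chromosome 17, 17810399 to 17837002, minus strand), the gene of SREBP-1, went from 110.3, 114 and 106 TPM in the controls to 152, 164 and 171 TPM after knockdown, again with no overlap (limma log2 difference 0.56 with SE 0.0631, p 0.000267 adjusted). The gene-level values do not separate the SREBP-1a and SREBP-1c transcripts. SREBF1 made up 44.7%, 44.5% and 44.8% of the summed SREBF1 and SREBF2 TPM in the knockdown libraries and 47.4%, 47.1% and 46.4% in the controls. The mean share moved from 46.97% ± 0.501 to 44.7% ± 0.169, a difference of -2.32 percentage points (exact permutation test, 2-sided, p = 0.1, which is the lowest value 3 against 3 can give).

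The SREBP partners gave other values. SCAP, the escort protein, had 63.2, 65.9 and 58.3 TPM after knockdown and 57.9, 63.2 and 59.03 TPM in the controls, and these ranges overlap (limma log2 difference 0.055 with SE 0.0698, p 0.539 adjusted). INSIG1 (ENSG00000186480, chromosome 7, 155297776 to 155310235, plus strand), the retention factor that is itself an SREBP target, fell from 93.8, 107 and 87.97 TPM in the controls to 73.1, 80.8 and 81.5 TPM. Every knockdown library was below every control (limma log2 difference -0.29 with SE 0.0860, p 0.024 adjusted). This call held in 9 of 15 alternative settings, and its adjusted p reached 0.0729. INSIG2, a related retention factor with low expression here, was at 4.76, 6.13 and 6.21 TPM and 4.41, 6.34 and 4.02 TPM, with overlapping groups (limma log2 difference 0.19, p 0.392 adjusted). INSIG1 therefore held most of the INSIG transcripts in both groups, 95.2% ± 0.677 of the summed TPM in the controls and 93.3% ± 0.545 after knockdown. That difference of -1.92 percentage points gave the same exact permutation p of 0.1. Summed over the 5 control genes, the level was 396 ± 20.1 TPM in the controls and 511 ± 25.3 TPM after knockdown.

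All 7 genes of the mevalonate arm passed, 5 upward and 2 downward, as did all 4 tested sterol transport and LXR target genes. Of all tested genes 53.6% passed, and of those with a mean TPM of 5 or more 61.1%. HMGCS1 (ENSG00000112972, chromosome 5, 43287470 to 43313512, minus strand), the cytosolic HMG-CoA synthase, was the most abundant of all members. Its TPM was 726, 668 and 754 after knockdown and 456, 570.4 and 499.5 in the controls. Control replicate 2 was the highest of the controls, still below all knockdown libraries (limma log2 difference 0.50 with SE 0.0903, p 0.00255 adjusted). ACAT2, the thiolase that joins acetyl-CoA units at the head of the route, rose from 239, 256 and 258 TPM in the controls to 352, 353 and 343 TPM (limma log2 difference 0.48, p 0.000261 adjusted). MVK, the mevalonate kinase, had 31.5, 38.1 and 43.5 TPM after knockdown against 25.8, 26.1 and 24.6 TPM in the controls. The knockdown libraries differed more among themselves than the controls did, yet all lay above them (limma log2 difference 0.54, p 0.00551 adjusted). IDI1, the isopentenyl diphosphate isomerase, was at 104, 115 and 109 TPM and 76.7, 85.5 and 79.4 TPM in the knockdown and control libraries (limma log2 difference 0.43, p 0.00117 adjusted). FDPS, the farnesyl diphosphate synthase, had 491, 470.2 and 467 TPM and 370.2, 395 and 373 TPM in the same order (limma log2 difference 0.33, p 0.00146 adjusted). Both were above every control in all 3 knockdown libraries, at 1.35 and 1.25 times the control mean.

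The 2 enzymes between mevalonate kinase and the isomerase went the other way. PMVK (ENSG00000163344, chromosome 1, 154924740 to 154936719, minus strand) fell from 46.5, 47.98 and 45.2 TPM in the controls to 27.9, 25.2 and 26.1 TPM after knockdown. The 6 values form 2 tight sets with no overlap (limma log2 difference -0.80 with SE 0.0677, p 8.4e-05 adjusted), and over the alternative settings the log2 fold change stayed between -0.84 and -0.71. MVD, the mevalonate diphosphate decarboxylase, fell from 82.2, 90.4 and 85.3 to 70.7, 65.4 and 71.3 TPM (limma log2 difference -0.31, p 0.00492 adjusted). The sum over the 7 genes was 1378 ± 88.3 TPM in the controls and 1783 ± 42.2 TPM after knockdown, which HMGCS1 and FDPS dominate.

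Between squalene and cholesterol 4 of 11 genes rose, 2 fell and 5 did not pass the test. The 6 called genes are 54.55% of the 11, close to the 53.6% of all tested genes that passed. Of the genes with a mean TPM of 5 or more, 61.1% passed. MSMO1 (ENSG00000052802, chromosome 4, 165327667 to 165343164, plus strand) had 144, 175 and 162 TPM after knockdown and 70.1, 68.6 and 74.97 TPM in the controls. Its lowest knockdown library, replicate 1, was well above the highest control (limma log2 difference 1.16 with SE 0.0818, p 4.5e-05 adjusted). TM7SF2 (ENSG00000149809, chromosome 11, 65111845 to 65116384, plus strand), a sterol C14 reductase, rose from 23.98, 22.3 and 20.04 TPM in the controls to 37.9, 41.5 and 33.7 TPM (limma log2 difference 0.74 with SE 0.101, p 0.000625 adjusted). EBP, the sterol isomerase that acts late in the route, rose from 109 ± 5.33 to 140.1 ± 7.09 TPM (limma log2 difference 0.36, p 0.00242 adjusted). SC5D, the sterol C5 desaturase, rose from 14.6 ± 0.815 to 17.5 ± 0.950 TPM (limma log2 difference 0.24, p 0.0398 adjusted), a call that held in 8 of 15 alternative settings.

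HSD17B7, the 3-ketosteroid reductase of the demethylation complex, fell from 21.98, 24.4 and 25.2 TPM to 18.5, 18.2 and 17.6 TPM (limma log2 difference -0.38, p 0.00501 adjusted). Its named pseudogene HSD17B7P2 reached at most 2.54 TPM, and reads shared with it may be divided either way. LSS, the lanosterol synthase, fell from 54.5 ± 3.59 to 47.05 ± 1.00 TPM (limma log2 difference -0.21, p 0.0351 adjusted), and this call held in only 4 of 15 alternative settings, with an adjusted p of up to 0.135. The partners of MSMO1 in removing the sterol methyl groups thus gave different values, a fall for HSD17B7 and no call for NSDHL, the sterol dehydrogenase (58.7, 61.4 and 52.8 TPM against 62.2, 58.5 and 59.4 TPM, limma log2 difference -0.060, p 0.517 adjusted). The sign of NSDHL turned positive, at 0.0059 to 0.027, under median-of-ratios scaling, quantile normalization and a TPM total without globin and mitochondrial genes.

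The genes that start the sterol branch were among those that did not pass. FDFT1, the squalene synthase, had 375, 381 and 475 TPM after knockdown and 389.7, 368 and 405 TPM in the controls. Knockdown replicate 3 stood above the other 5 libraries, and without it the log2 fold change went from 0.074 to -0.035 (adjusted p 0.548 and 0.687). SQLE, the squalene epoxidase and a rate-limiting step, had 217, 213 and 208 TPM against 228, 232 and 225 TPM in the controls. Its 3 knockdown values were all below the controls, but the difference did not pass the threshold (limma log2 difference -0.11 with SE 0.0487, p 0.104 adjusted). CYP51A1, the lanosterol demethylase, was at 150, 117 and 152 TPM and 119.6, 131 and 128 TPM. Knockdown replicate 2 was the lowest of the 6, and without it the log2 fold change was 0.26 with an adjusted p of 0.0198, against 0.14 and 0.301 with all libraries. DHCR7, which reduces the last precursor to cholesterol, had 85.97, 79.1 and 78.04 TPM and 92.5, 91.3 and 80.7 TPM, with overlapping groups (limma log2 difference -0.12, p 0.218 adjusted). Summed over the 11 genes, the level was 1186 ± 9.71 TPM in the controls and 1322 ± 60.9 TPM after knockdown. Most of this rise lay in MSMO1, which went from 71.2 ± 3.32 to 160.3 ± 15.7 TPM.

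**Figure D4:**
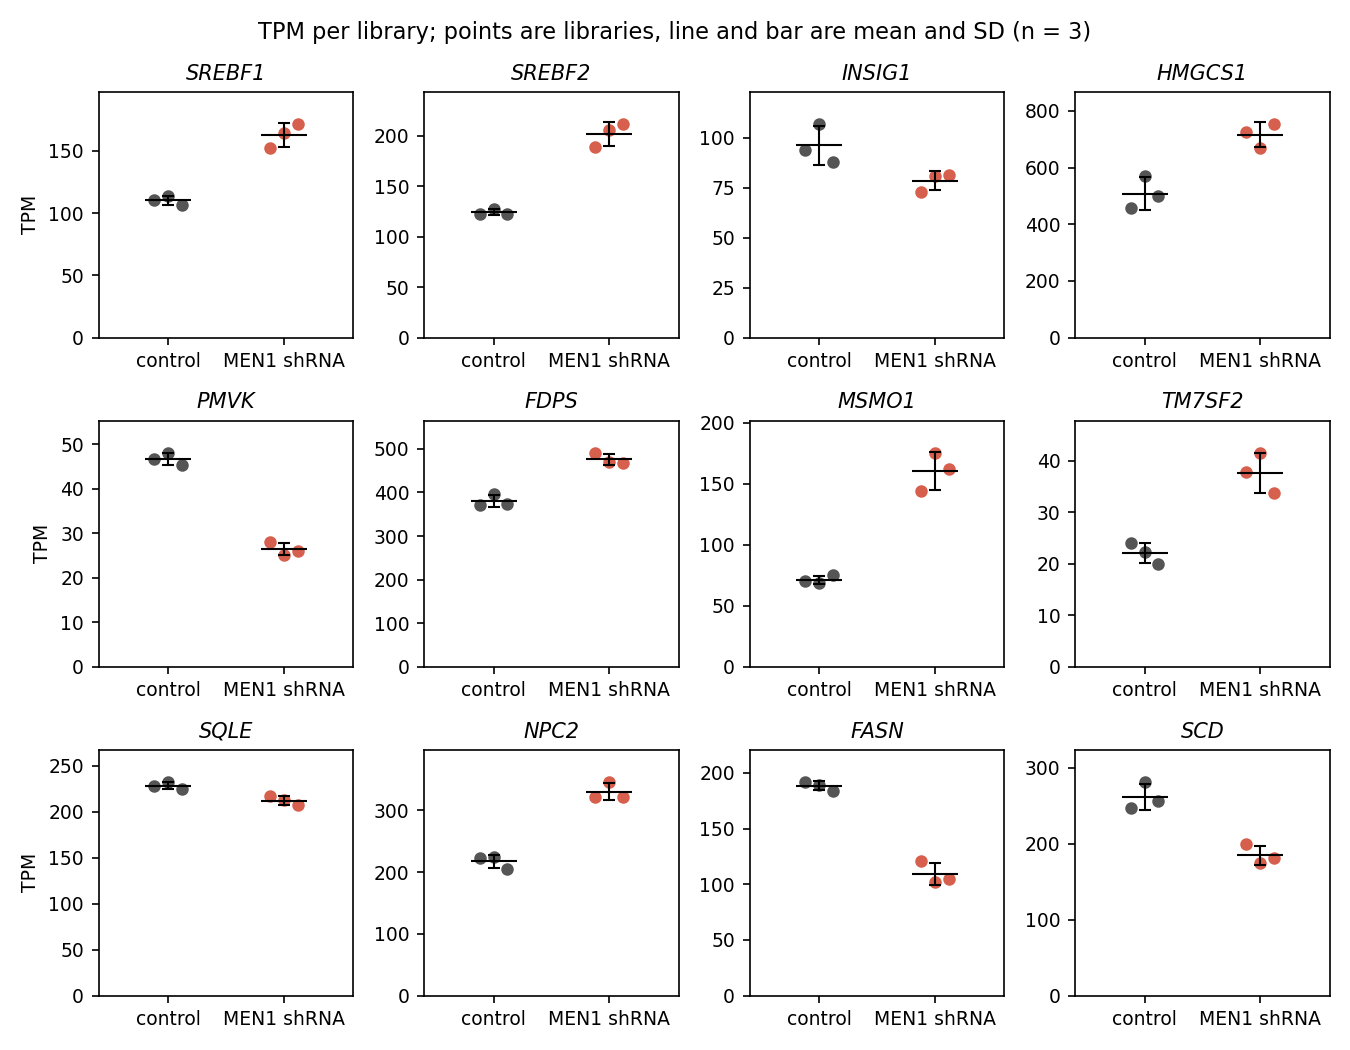
TPM of 12 members in each control and MEN1 shRNA library (points), with the mean and SD of 3 libraries, each panel starting at 0. All 12 shown are among the 24 of 31 tested members whose groups do not overlap (77.4%, against 61.8% of all tested genes). Members with overlapping groups are not plotted. MSMO1 at 71.2 and 160.3 TPM and SQLE at 229 and 212 TPM are the widest and the narrowest of these 12 by ratio.

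All 4 tested genes of the sterol transport and LXR target group rose, where 22.1% of all tested genes did. NPC2 (ENSG00000119655, chromosome 14, 74476192 to 74494177, minus strand), the soluble carrier that takes cholesterol out of lysosomes, had 322, 346 and 321 TPM after knockdown and 222, 225 and 205 TPM in the controls. The groups were well separated (limma log2 difference 0.60 with SE 0.0600, p 0.00016 adjusted). NPC1, the membrane partner that receives cholesterol from NPC2, rose from 19.7 ± 0.639 to 23.2 ± 0.224 TPM (limma log2 difference 0.22, p 0.0249 adjusted), and this call held in 9 of 15 alternative settings. STARD4, a sterol carrier of the cytosol and an SREBP target, rose from 23.3, 25.98 and 24.5 TPM to 32.5, 36.4 and 36.95 TPM (limma log2 difference 0.50, p 0.0013 adjusted). MYLIP, an LXR-induced ubiquitin ligase that removes lipoprotein receptors, rose from 9.61, 9.96 and 11.5 TPM to 12.5, 14.6 and 14.99 TPM (limma log2 difference 0.40, p 0.0155 adjusted), a call kept in 11 of 15 settings.

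The LXR-driven exporters were close to absent. ABCA1, which loads cholesterol onto apolipoproteins, had 0.198, 0.362 and 0.213 TPM after knockdown and 0.0616, 0.0518 and 0.0177 TPM in the controls, under the filter in every library. The knockdown values were all above the controls, and with no filter on low genes the log2 fold change was 0.27 with an adjusted p of 0.0301, at coverage of 0.0425 to 0.595 reads per base. ABCG1, which exports cholesterol to lipoprotein particles, was listed at 0 in 5 libraries and at 0.101 TPM in knockdown replicate 3, so no change could be measured at this depth.

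None of the 4 fatty acid genes among the members rose and 2 fell, where 22.1% of all tested genes rose and 31.5% fell. FASN (ENSG00000169710, chromosome 17, 82078338 to 82098294, minus strand) fell from 192, 189 and 184 TPM in the controls to 121, 102 and 104 TPM after knockdown. Knockdown replicate 1 was the highest of its group and still far below the controls (limma log2 difference -0.78 with SE 0.0729, p 0.000117 adjusted). SCD (ENSG00000099194, chromosome 10, 100347233 to 100364826, plus strand), the desaturase that makes monounsaturated fatty acids, fell from 247, 281 and 256 TPM to 199, 175 and 181 TPM (limma log2 difference -0.50 with SE 0.0732, p 0.000922 adjusted). ACLY, which makes cytosolic acetyl-CoA from citrate for both routes, was lower in all 3 knockdown libraries (197, 195 and 189 TPM against 206, 213 and 209.9 TPM) without passing the threshold (limma log2 difference -0.11, p 0.0857 adjusted). ACACA, the acetyl-CoA carboxylase that commits acetyl-CoA to fatty acids, had 24.9, 23.01 and 23.3 TPM and 23.4, 23.5 and 30.5 TPM. Control replicate 3 was the highest of the 6, and without it the log2 fold change went from -0.11 to 0.018 (adjusted p 0.463 and 0.88). The sum over the 4 genes was 685 ± 19.8 TPM in the controls and 512 ± 26.3 TPM after knockdown. That of the sterol transport and LXR target genes was 272 ± 9.46 TPM in the controls and 402 ± 15.8 TPM after knockdown. NPC2 dominated it, with 217.5 ± 10.6 and 330 ± 13.8 TPM.

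**Figure D5:**
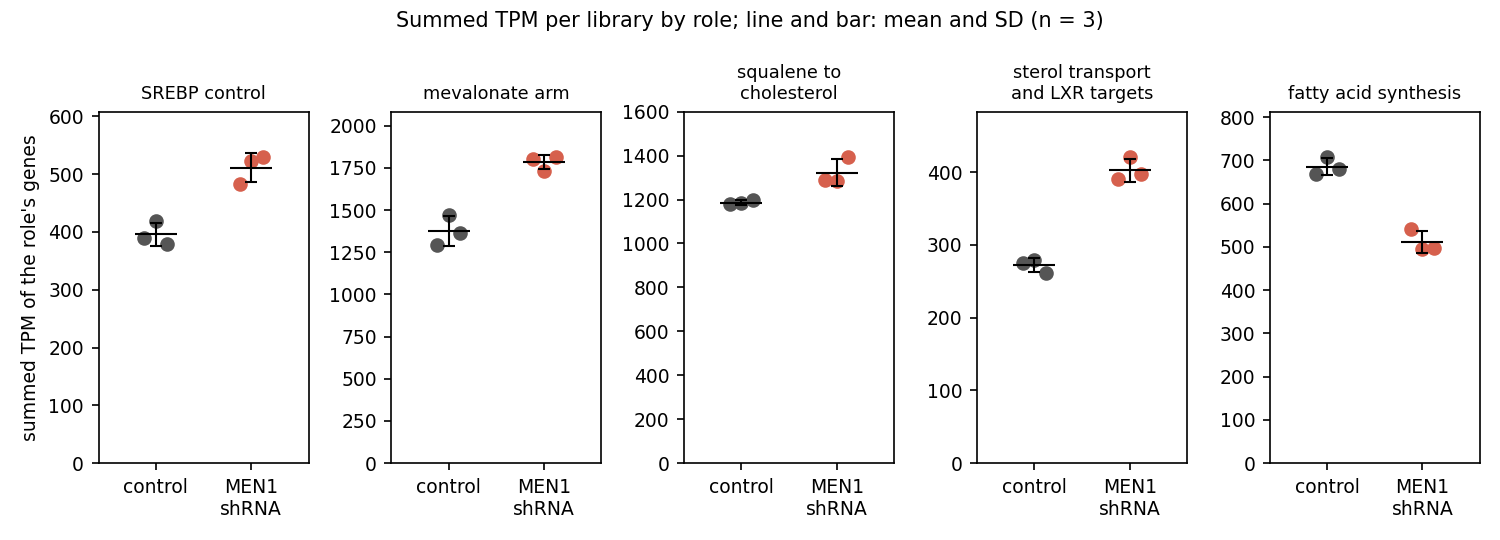
Summed TPM of the genes of each role in each library (points), with the mean and SD of 3 libraries and axes starting at 0. The fatty acid sum is lower with the MEN1 shRNA (512 against 685 TPM), and the sums of the other 4 roles are higher. A few genes can carry a sum, so it does not mean that every gene of a role moved.

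Genes beside the route were read from 4 further lists of 60 genes, of which 55 were tested. Of these 13 rose and 23 fell, on TPM as deposited, where 22.1% and 31.5% of all genes did so and where other scalings brought the 2 directions closer to balance, with a median log2 fold change of -0.16. In the list of SREBP processing and sterol-driven degradation, 2 of 10 rose and 5 fell. MBTPS2, the Golgi site-2 protease that frees SREBP, rose from 8.22 ± 0.470 to 12.1 ± 0.446 TPM (limma log2 difference 0.51, p 0.00211 adjusted). ERLIN2, a protein of the endoplasmic reticulum that takes part in sterol-driven degradation, fell from 38.2 ± 2.28 to 28.5 ± 2.35 TPM (limma log2 difference -0.41, p 0.00446 adjusted).

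Most isoprenoid branches leave the route at farnesyl diphosphate. In the list of these branches 3 of 14 genes rose (21.4%) and 5 fell (35.7%), close to the 22.1% and 31.5% of all tested genes. Both subunits of the Rab geranylgeranyl transferase rose, RABGGTA from 22.6 ± 0.850 to 42.9 ± 4.42 TPM (limma log2 difference 0.89, p 0.000153 adjusted) and RABGGTB from 85.9 ± 1.80 to 110.3 ± 4.20 TPM (limma log2 difference 0.36, p 0.0012 adjusted). GGPS1, which makes geranylgeranyl diphosphate, fell from 12.6 ± 1.21 to 8.21 ± 0.721 TPM (limma log2 difference -0.56, p 0.0033 adjusted), and FNTA, the shared subunit of the other prenyl transferases, also fell (limma log2 difference -0.33, p 0.00154 adjusted).

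Other genes of fatty acid and lipid synthesis were split, with 5 of 17 higher and 5 lower. Each is 29.4% of the list, against 22.1% higher and 31.5% lower over all tested genes. ACSS2, the acetyl-CoA synthetase that uses acetate, had 102, 114 and 119 TPM after knockdown and 43.7, 44.96 and 45.6 TPM in the controls (limma log2 difference 1.30, p 2.4e-05 adjusted). ACSL4, an acyl-CoA synthetase for polyunsaturated fatty acids, had 137, 162 and 179 TPM and 46.4, 58.2 and 52.5 TPM (limma log2 difference 1.58, p 5.2e-05 adjusted). Both had a larger log2 fold change than MSMO1, in the same libraries in which FASN and SCD fell. LPIN1, a phosphatidate phosphatase, rose from 4.71 ± 0.743 to 8.66 ± 0.467 TPM (limma log2 difference 0.77, p 0.00136 adjusted), and the desaturase FADS2 fell from 316 ± 10.6 to 207 ± 26.2 TPM (limma log2 difference -0.61, p 0.000881 adjusted).

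Of 14 tested genes of sterol uptake, storage and export beyond the members, 3 rose (21.4%) and 8 fell (57.1%), with a median log2 fold change of -0.54. Over all tested genes 22.1% rose and 31.5% fell, with a median of -0.07. NR1H2, which encodes LXR-beta, rose from 118 ± 9.32 to 208 ± 18.1 TPM (limma log2 difference 0.81, p 0.000211 adjusted). TMEM97, the sigma-2 receptor and an SREBP target that binds NPC1, had 32.97, 20.5 and 22.2 TPM after knockdown and 64.4, 69.3 and 69.03 TPM in the controls. Knockdown replicate 1 came closest, with no overlap (limma log2 difference -1.42, p 0.000274 adjusted). SCARB1, the receptor for high-density lipoprotein, fell from 81.7 ± 1.57 to 37 ± 5.18 TPM (limma log2 difference -1.13, p 0.000105 adjusted), and GRAMD1A, which carries sterol from the plasma membrane inward, from 34.9 ± 1.21 to 15.3 ± 0.478 TPM (limma log2 difference -1.14, p 3.0e-05 adjusted).

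Some members share their position with other genes, and whether the counting used strand is not given in the sources used here. ACAT2 overlaps TCP1 on the opposite strand by 615 bases, and TCP1 had 729 ± 13.3 TPM in the controls and 510.1 ± 44.9 TPM after knockdown. NPC2 overlaps ISCA2 by 422 bases on the opposite strand (32.1 ± 1.24 TPM in the controls and 15.2 ± 1.00 TPM after knockdown). CYP51A1 and NPC1 share 25687 and 25639 bases of their spans with AKAP9 and RMC1 on the opposite strand. AKAP9 had 24.65 ± 1.27 TPM in the controls and 30.5 ± 3.19 TPM after knockdown, and RMC1 had 29.3 ± 2.005 and 37.8 ± 3.01 TPM. Both were thus higher after knockdown, as were NPC1 and the mean of CYP51A1, which did not pass the test. Whether reads of the overlapping genes entered the members' values was not tested. SREBF2 overlaps its antisense gene SREBF2-AS1, which stayed at or below 1.62 TPM in every library.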

How the data were processed

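Each of the 6 libraries has 1 table of gene values. Per the submitters' processing notes, FastQC, Trimmomatic, STAR 2.7.1a, Picard 2.20.4, StringTie 2.0.4 and the build hg38 were used, with no role or order stated. Neither the annotation nor any use of strand is given in the sources used here. TPM as deposited adds up to 1000000 per library, so more globin RNA lowers every other value. FPKM as deposited relates each gene's fragments to its length and to the library, and coverage as deposited is the mean read depth per base, with no scaling for depth. In control replicate 2, 2 genes had a residue below 0, set to 0. No read counts are in the tables used here. In genes with 1 transcript in GENCODE v29, coverage over FPKM gave the aligned bases, read as pairs of 151-base reads. Positions are the deposited ones, and those of all 33 members overlap GENCODE v29.

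Genes reaching 1 TPM in 3 or more libraries entered limma 3.58.1 (R 4.3.3) as log2(TPM + 1), with lmFit and eBayes(trend), a 2-sided test, Benjamini-Hochberg adjustment over 14294 genes and a threshold of 0.05. This scale understates fold changes of low genes. The step was tested on simulated data. Shares had exact permutation tests. Python 3.11.15 with SciPy 1.17.1 made sums, motif counts and plots. All 33 members and MEN1 were named, and from each further list up to 4 called genes of lowest adjusted p, of which some are not reported here. The alternatives were FPKM, a pseudocount of 0.1, other filters and scalings, a replicate block, no trend, a threshold of 0.01, treat and each library left out. Members, lists and tests were chosen with earlier results of these data known.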

Additional observations from a re-analysis of the deposited data

How the results depend on the processing

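Each tested member was compared with its value under 15 alternative settings, leaving aside treat and the threshold of 0.01, at which 5527 genes and 17 members passed (12 higher and 5 lower). These made 465 comparisons, of which 423 left both sign and call as they were, 34 lost the call, 1 gained it and 7 changed sign. Of the 22 called members, 17 kept their call in all 15, as did the 17 genes outside the list that were compared. INSIG1 and LSS lost theirs under median-of-ratios scaling (adjusted p 0.0678 and 0.132), after globin and mitochondrial genes were left out of the TPM total (0.0582 and 0.12) and under quantile normalization (0.0585 and 0.135). With no filter INSIG1, LSS and SC5D were at 0.0729, 0.061 and 0.0606, and LSS was at 0.0638 without the trend. The cause was not tested. Over all genes these 3 scalings gave 3758, 3558 and 3731 higher and 3838, 3975 and 3863 lower, with 15 members higher and 5 lower in each.

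Leaving out each library in turn left 17 to 20 members past the threshold, 12 to 14 higher and 5 to 7 lower, among 6577 to 7542 genes. The difference in the SREBF1 share ran from -2.60 to -2.11 points and that in the INSIG1 share from -2.31 to -1.70 points. LSS lost its call without any library but control replicate 1 (adjusted p 0.0664 to 0.115), and SC5D without any but knockdown replicate 2 (0.0531 to 0.128). NPC1 lost its call without any but knockdown replicate 1 (0.0506 to 0.0812), and MYLIP without knockdown replicates 2 and 3 and control replicates 1 and 2 (0.0507 to 0.0535). INSIG1 lost it without knockdown replicate 1 or control replicate 2 (0.0641 to 0.0686). Signs changed for 3 members that did not pass the test. NSDHL was at 0.027, 0.0059 and 0.026 under the 3 scalings in the order above and at -0.11 to 0.00041 with 1 library left out, the highest without knockdown replicate 3 (0.00041). ACACA was at 0.015 with quantile normalization and at -0.17 to 0.018 with 1 library left out, and FDFT1 at -0.035 to 0.13.

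Treat against 0.5 left 2126 genes, 848 higher and 1278 lower, and 4 members, 2 in each direction, by its own construction. Deviations from the group means correlated at 0.017, -0.027 and -0.012 between libraries with the same replicate number, so the numbers were not taken to pair them. A fit with a replicate block called 7012 genes and 19 members, without LSS, SC5D and NPC1 (adjusted p 0.0564, 0.0906 and 0.0688). Depth limits ABCA1 and ABCG1, and without read counts the counting error is unknown.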

Other observations

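A few genes of the further lists, picked here after their values were seen, split within a group rather than between groups. NCEH1, a cholesterol ester hydrolase, had 23.4, 56.4 and 54.4 TPM in MEN1 shRNA replicates 1, 2 and 3 and 23.6, 22.8 and 23.9 TPM in the controls, so that replicate 1 lay at the control level and the other 2 above it (limma adjusted p 0.055). ELOVL5, a fatty acid elongase, had 270, 146 and 106 TPM in control replicates 1, 2 and 3 and 239, 239 and 229.6 TPM with the MEN1 shRNA (adjusted p 0.153). ICMT, which methylates prenylated proteins, was at 42.6, 17.7 and 37.7 TPM in the controls and 25.8, 22.2 and 24.4 TPM with the MEN1 shRNA (adjusted p 0.367). TRIT1, which adds an isoprenoid group to transfer RNA, was at 10.7, 27.8 and 24.2 TPM and 9.96, 10.3 and 12.4 TPM in the same order (adjusted p 0.0657).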
